A study of Mus musculus with 48 samples.

Results

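Nptx1, Scg2, AI593442, Lamp5 and Hs3st4 are 5 of the 15782 genes measured in 4 regions of the mouse brain after spaceflight. They were chosen by the sign of their flight difference in saline-treated mice, where the mean of the flight animals lay above that of the ground controls in some regions and below it in others. The level of Nptx1, for example, was 2.07-fold higher after flight in the cortex (CT) and 0.70-fold of the control level in the frontal cortex (FCT). That comparison chose the genes, so its values are given below as a description and carry no test. The same flight comparison in mice given the antioxidant BuOE did not enter the choice and was tested, as were the levels between regions in those mice.

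All animals were male C57BL/6 mice, 10 weeks old at launch. The flight groups spent 35 days on the International Space Station and received saline (FLT-SAL) or BuOE (FLT-BuOE), a manganese porphyrin that mimics superoxide dismutase, injected under the skin at 1 mg/kg in 0.2 mL from 7 days before launch and then weekly. The ground controls (GC-SAL and GC-BuOE) had the same treatments for 35 days in flight hardware cages, with the schedule running 3 days later, and flight mice arrived at the laboratory no later than 20 h after splashdown. Each group had 3 mice. Sections of the fixed left hemibrain were profiled on the GeoMx platform in 1 area of illumination (AOI) per region and mouse, namely Cornu Ammonis 1 (CA), dentate gyrus (DG), FCT and CT, which gave 48 AOIs from 12 mice. The 3 mice of a group lay on a slide of their own, so slide and group cannot be told apart, and an AOI was not sorted by cell type, so fewer cells of a type and less RNA per cell cannot be told apart either.

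Of the 5 genes, 4 have known roles in neurons or at the cell surface. Nptx1 encodes neuronal pentraxin 1, a secreted protein that gathers AMPA-type glutamate receptors at synapses. Scg2 encodes secretogranin II, a granin that is packed into dense-core vesicles and cut into peptides such as secretoneurin, and its transcript is known to follow neuronal activity. Lamp5 encodes a membrane glycoprotein of the LAMP family that is largely restricted to brain neurons and marks a class of cortical interneurons. Hs3st4 encodes a sulfotransferase that adds a late sulfate group to heparan sulfate chains and is known from neurons of the deep cortical layers. AI593442 is annotated as protein coding and carries only a clone-derived name, and no role is given for it here.

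In the GENCODE annotation of the GRCm38 build, the 5 genes lie on different chromosomes. Nptx1 spans chr11:119538719-119547753 on the minus strand with 5 exons, and Scg2 spans chr1:79434669-79440120 on the minus strand with 2 exons. AI593442 spans chr9:52673042-52679780 on the minus strand with 2 exons. Lamp5 spans chr2:136052239-136069917 on the plus strand with 6 exons, and Hs3st4 spans chr7:123982869-124398989 on the plus strand with 2 exons. 

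The 250 bases before the RefSeq start are shown for the 4 genes that have such a window, since these genes differ in what the region before the start holds. The windows are at chr1:79440027-79440276 (minus strand) for Scg2, chr9:52679438-52679687 (minus strand) for AI593442, chr2:136052089-136052338 (plus strand) for Lamp5 and chr7:123982578-123982827 (plus strand) for Hs3st4, in GRCm38.p6 and written 5′ to 3′. By the GENCODE spans above, the AI593442 window lies wholly inside the gene and those of Scg2 and Lamp5 lie partly inside. Lamp5 has another RefSeq window, at chr2:136057498-136057747, which is not shown and holds none of the motifs searched. Capitals mark TGACGTCA, the palindromic cyclic AMP response element, and GGGCGG or its complement CCGCCC, the GC box.
Scg2: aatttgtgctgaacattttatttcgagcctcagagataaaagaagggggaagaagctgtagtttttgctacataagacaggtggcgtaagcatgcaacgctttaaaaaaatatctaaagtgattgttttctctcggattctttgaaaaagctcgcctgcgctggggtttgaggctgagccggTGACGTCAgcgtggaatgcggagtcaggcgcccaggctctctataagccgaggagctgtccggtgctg
AI593442: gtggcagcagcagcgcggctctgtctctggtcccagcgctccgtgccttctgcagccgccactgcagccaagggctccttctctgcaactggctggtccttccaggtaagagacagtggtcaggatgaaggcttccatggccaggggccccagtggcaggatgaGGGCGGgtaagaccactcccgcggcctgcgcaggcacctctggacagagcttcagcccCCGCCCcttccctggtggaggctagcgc
Lamp5: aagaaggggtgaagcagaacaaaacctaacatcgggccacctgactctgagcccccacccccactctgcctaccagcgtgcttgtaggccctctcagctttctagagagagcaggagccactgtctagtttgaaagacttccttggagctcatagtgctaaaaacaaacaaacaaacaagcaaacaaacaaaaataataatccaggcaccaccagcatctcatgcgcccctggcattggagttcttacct
Hs3st4: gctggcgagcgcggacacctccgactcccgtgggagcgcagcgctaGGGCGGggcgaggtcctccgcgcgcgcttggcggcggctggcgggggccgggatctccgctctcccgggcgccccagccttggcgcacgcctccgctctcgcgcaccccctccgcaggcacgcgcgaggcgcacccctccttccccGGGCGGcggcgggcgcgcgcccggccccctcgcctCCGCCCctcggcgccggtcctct
TGACGTCA occurred in 1.55% of the 32851 RefSeq windows of this length and, among the members, only in that of Scg2, from 68 to 61 bases before the start. GGGCGG on either strand occurred in 32.7% of windows, with 2 matches for AI593442 and 3 for Hs3st4 and none for Scg2 or Lamp5. TGANTCA (6.75% of windows), TATAAA (12.4%) and CAGCTG (13%), each searched on both strands, were in none of these windows, and the shorter TGACG (17.8%) was found only inside the element of Scg2. The share of G and C was 82% for Hs3st4, 66.8% for AI593442, 49.2% for Lamp5 and 48% for Scg2, against a median of 52.4% over all windows.

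Depth and background set how far the low values can be read. The AOIs held 322629 to 1579380 probe counts (median 652040) from 140 to 640 nuclei, at a sequencing saturation of 81.7% to 96.2%. AOI area differed between groups. In FCT it was 146259 µm² in every GC-SAL and 198761 µm² in every FLT-SAL AOI. In CT it was 208860 µm² in every GC-BuOE and 144580 µm² in every FLT-BuOE AOI. Over the 12 AOIs of FCT, the members' Pearson correlations with area ran from −0.71 (Scg2) to 0.37 (AI593442). For CT they ran from −0.69 (Lamp5) to 0.72 (Scg2). The part of area was not tested. The median total was 991426 for FLT-SAL against 548888 to 639735 for the other groups, and the Q3 normalization brought the upper quartile of every AOI to 40.02. With the log2 total probe count, the members' correlations ran from 0.07 (Scg2) to 0.64 (AI593442) in CA. They ran from −0.41 (Lamp5) to 0.85 (Nptx1) in DG and from −0.52 (Scg2) to 0.14 (AI593442) in FCT. In CT they ran from −0.66 (Lamp5) to 0.78 (Nptx1 and Hs3st4). The part of depth was not tested. Negative-control probes averaged 18.6 normalized counts for CA AOIs, 11.2 for DG, 14.2 for FCT and 14.8 for CT. Markers of CA1 pyramidal neurons summed to a median of 518 in CA against 159 to 276 elsewhere, and those of dentate granule neurons to 576 in DG against 205 to 214 elsewhere, as the region labels would have it.

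Each of the 5 genes was read by 1 probe. Over the 12 mice, the median of Nptx1 was 11.5, 39.7, 16 and 11.7 times the negative-control value in CA, DG, FCT and CT. The medians of Scg2 (3.26 to 6.33 times) and Hs3st4 (2.85 to 5.44 times) were also above it in every region, but single groups stood lower. In the CA of FLT-BuOE mice, Scg2 was at 2.04 to 2.59 times, on probe counts of 24 to 30. In the CT of FLT-BuOE mice, Hs3st4 was at 2.01 to 2.87 times, on probe counts of 25 to 61. The lowest mouse of Hs3st4 was at 1.96 times, in CA. AI593442 stood at only 1.94 times the negative control in CA and Lamp5 at 2.12 times, with the lowest mouse of each at 1.19 times, so that their CA values rest close to the background and on probe counts that go down to 11 for AI593442 and 14 for Lamp5. The same limit holds elsewhere: the lowest mouse of AI593442 was at 1.39 times the negative control in FCT and 1.47 times in CT, and that of Lamp5 at 1.5 times in DG, with probe counts from 18 for AI593442 in FCT and from 16 for Lamp5 in DG.

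Nptx1, the synaptic pentraxin, was higher after flight in the CT of saline mice and lower in the FCT. In CT it was at 89.7, 164 and 122 normalized counts in the GC-SAL mice and 210.3, 271 and 281 in the FLT-SAL mice. Every FLT-SAL mouse lay above every control there, with a log2 difference of 1.05 ± 0.17 (SE, n = 3 per group). The lowest of these controls, GC-SAL mouse 1, had only 140 nuclei in its CT AOI, where the other CT AOIs had 416 to 598, and the difference was 0.83 without it. In FCT the order was turned around: the controls were at 308, 306 and 259 and the flight mice at 149, 249 and 227, a log2 difference of −0.51 ± 0.20 without overlap. DG, where Nptx1 was most abundant, had 426, 474 and 445 in GC-SAL and 511, 489 and 501 in FLT-SAL. These DG values did not overlap but differed by only 0.16 ± 0.11 on the log2 scale. In CA the groups overlapped (180.1, 192 and 239 against 233, 298 and 235).

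**Figure D1:**
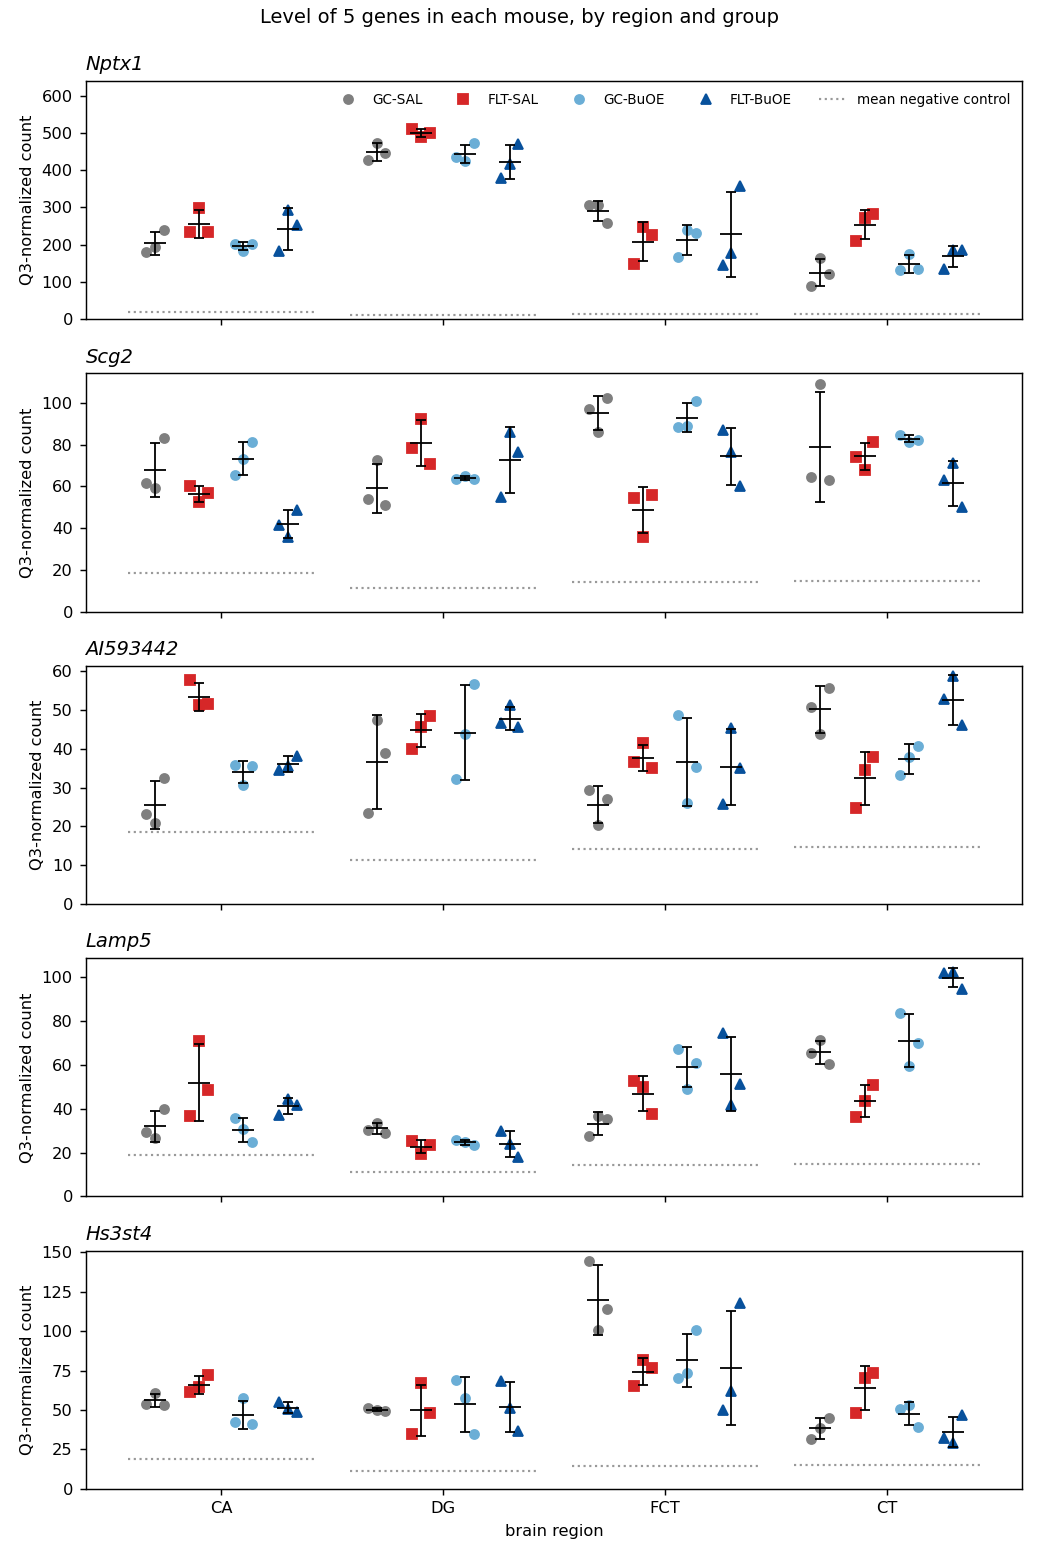
Q3-normalized counts of the 5 genes (a panel per gene, y axis linear from 0) by region in each mouse of the 4 groups, as points, with the mean and SD of the 3 mice of a group and a dotted line at the mean negative control of the region. In saline mice the CT mean of Nptx1 was 125 for GC-SAL and 254 for FLT-SAL, and the FCT mean 291 and 208.

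Scg2, the granin, had its widest saline difference in FCT. The GC-SAL mice were at 96.9, 86.3 and 102, and the FLT-SAL mice at 54.3, 35.7 and 55.8, which is 0.51-fold of the control level (log2 difference −0.98 ± 0.17, SE, n = 3 per group). All 3 flight mice were thus below all controls. DG held the opposite sign, with 53.8, 72.6 and 51.0 in GC-SAL and 78.6, 92.5 and 70.8 in FLT-SAL (0.45 ± 0.17), though the lowest flight mouse was just under the highest control. CA (61.6, 59.1 and 83.0 against 60.0, 52.3 and 57.0) and CT (64.3, 109 and 63.3 against 74.2, 68.0 and 81.1) overlapped. The sign in CT, at −0.04, rested on the GC-SAL mouse at 109 and was 0.22 without it, and it was 0.02 without the FLT-SAL mouse at 68.0.

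Lamp5, the LAMP family glycoprotein, was lower after flight in the CT and DG of saline mice and higher in FCT and CA. In CT the values were 65.5, 71.2 and 60.5 in GC-SAL and 36.4, 43.5 and 50.8 in FLT-SAL (log2 difference −0.59 ± 0.17, SE, n = 3 per group). In FCT they were 27.4, 36.9 and 35.3 against 52.6, 50.0 and 37.8 (0.48 ± 0.19). The cortical regions therefore moved in opposite directions, in each case without overlap between the groups. In DG, 30.4, 33.5 and 29.0 in GC-SAL stood above 25.2, 19.2 and 23.6 in FLT-SAL (−0.44 ± 0.23), at probe counts of 22 to 37. In CA the values overlapped, at 29.2, 26.7 and 40.0 against 36.5, 70.8 and 48.5, and the mean difference of 0.65 ± 0.23 leaned on the flight mouse at 70.8. Without that mouse it was 0.41.

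Hs3st4, the heparan sulfate sulfotransferase, had the same cortical opposition as Nptx1. In FCT the GC-SAL mice were at 144, 100.5 and 114 and the FLT-SAL mice at 65.2, 81.5 and 76.4 (log2 difference −0.67 ± 0.20, SE, n = 3 per group). In CT the controls were at 31.5, 38.8 and 44.7 and the flight mice at 48, 70.5 and 73.4 (0.71 ± 0.19). Neither pair of groups overlapped. The lowest CT control, at 31.5, was again the AOI with 140 nuclei, and without it the CT difference was 0.58. In CA the flight mice (61.2, 64.7 and 72.3) were also above the controls (53.9, 61.0 and 53.4), by 0.23 ± 0.19. The DG means were alike at 49.9 and 50.1, with a spread of 34.8 to 67.1 among the flight mice, and the sign of −0.05 there was positive in the count models and without the flight mouse at 34.8.

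AI593442 was higher after flight in CA and FCT and lower in CT. In CA the values were 23.1, 21.0 and 32.6 in GC-SAL against 57.7, 51.3 and 51.6 in FLT-SAL, a 2.09-fold higher level in flight (log2 difference 1.06 ± 0.23, SE, n = 3 per group). The CA controls lay near the negative-control level, and with that level subtracted the log2 difference was 2.66. In FCT the controls (29.5, 20.4 and 27.1) were below the flight mice (36.6, 41.5 and 35.1), by 0.55 ± 0.22. The median FCT control was at 1.70 times the negative control, and with the negative control subtracted the difference was 1.06. In CT the controls (50.9, 43.8 and 55.8) were above them (24.7, 34.5 and 38.0), by a log2 difference of −0.63 ± 0.18. DG was the region without a clear sign, with 23.5, 47.5 and 39.0 against 40.0, 45.7 and 48.6.

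Across the 20 combinations of the 5 genes and 4 regions, 11 differences were above 0 and 9 below in saline mice. The groups did not overlap in 13 combinations, 7 with flight above and 6 with flight below, in the contrast that chose the genes. Over all genes and regions 12.6% of such combinations did not overlap (CA 12.9%, DG 14.8%, FCT 12.1% and CT 10.4%). A change of sign between regions was common by itself, since 80.9% of all genes had both signs among the 4 regions in saline mice and 82.7% in BuOE mice. Values above without overlap in 1 region and below without overlap in another were found for 2.67% of all genes in saline mice, a group to which 4 of the 5 members belong, and for 2.33% in BuOE mice, where no member did so.

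The distance from the highest to the lowest regional difference set the 5 genes further apart from the rest, again as a description of how they were chosen. It was 1.69 on the log2 scale for AI593442, 1.56 for Nptx1, 1.43 for Scg2, 1.38 for Hs3st4 and 1.24 for Lamp5, where the median of all genes was 0.43. Only Pik3r4, at 2.64, had a wider spread than AI593442, and 33 genes had a wider one than Lamp5. In BuOE mice the same distance was 0.36 for Nptx1, 0.53 for AI593442, 0.56 for Hs3st4, 0.60 for Lamp5 and 0.96 for Scg2, against a median of 0.47. That left 4616 to 11010 genes wider than Nptx1, AI593442, Hs3st4 and Lamp5, and 645 wider than Scg2.

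**Figure D2:**
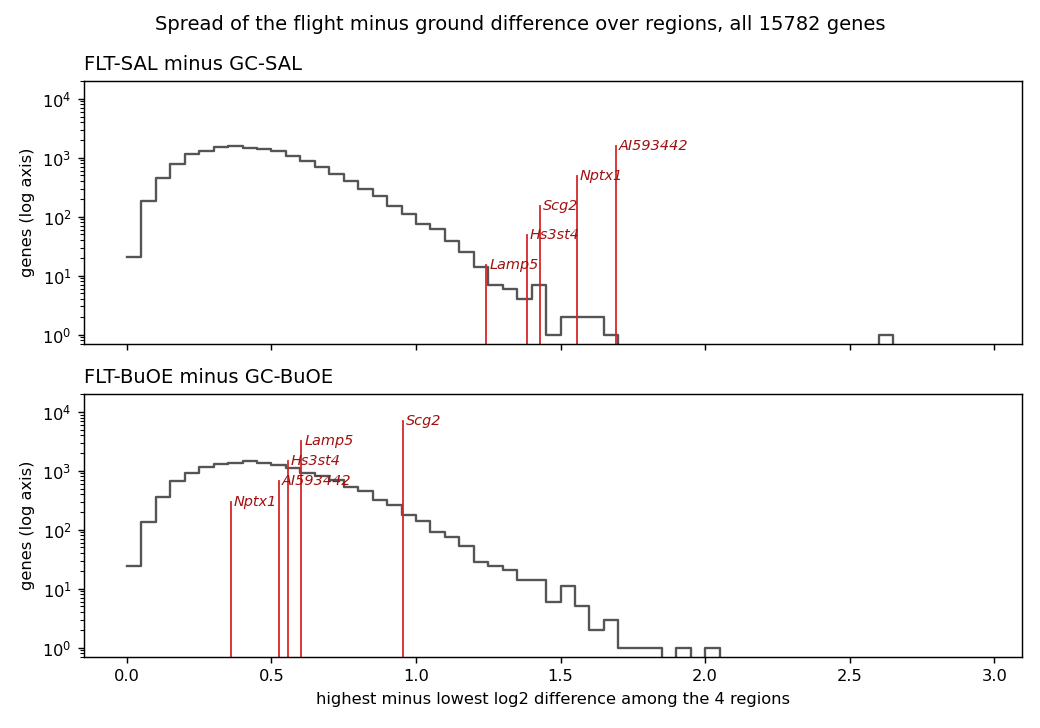
Distribution over the 15782 genes of the spread of the flight difference between regions (highest minus lowest log2 difference, x axis, against the number of genes, y axis on a log scale) in saline and in BuOE mice, with the 5 genes marked. The marked genes lie between 1.24 and 1.69 in saline mice, where they were chosen, and between 0.36 and 0.96 in BuOE mice.

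FLT-BuOE against GC-BuOE asks whether the same regional differences were present in treated animals, in mice that the choice did not use. None of the 5 genes passed the test in any region (limma on log2 of the normalized count plus 1, Benjamini-Hochberg adjusted p below 0.05 and a difference of more than 1.5-fold). The share of all genes called was 0.0444% (CA), 0.108% (DG), 0.019% (FCT) and 0.0127% (CT). That is 7, 17, 3 and 2 genes, with 1187, 1301, 1131 and 1049 at an unadjusted p below 0.05. The call counts moved with the tool and with single mice, as given under the processing alternatives. The tests of the members thus failed to find a difference, and their intervals show how large a difference they allow.

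Scg2 came nearest to the threshold, in CA. The GC-BuOE mice were at 65.3, 73.4 and 81.1 and the FLT-BuOE mice at 41.4, 35.6 and 48.7, so that all flight mice lay below all controls. These flight mice stood at 2.04 to 2.59 times the negative control, on probe counts of 24 to 30. The log2 difference was −0.80 ± 0.19 (95% interval −1.18 to −0.41, limma adjusted p = 0.094). Scg2 was also lower without overlap in FCT, with 88.7, 88.9 and 101 in GC-BuOE and 87.2, 76.5 and 60.0 in FLT-BuOE (−0.33 ± 0.17, limma adjusted p = 0.71). In CT the controls stayed within 84.6, 81.4 and 82.4 while the flight mice were at 63.3, 71.2 and 50.0 (−0.44 ± 0.17, limma adjusted p = 0.63). DG again had the other sign, with 63.4, 65.0 and 63.4 against 55.0, 86.3 and 76.7 (0.16 ± 0.17). Scg2 was the member whose sign was the same in saline and BuOE mice in all 4 regions, positive in DG and negative in CA, FCT and CT, with the CT sign in saline mice resting on single mice as given above.

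Lamp5 and AI593442 in CT had the opposite sign in BuOE mice from that in saline mice. Lamp5 was at 83.5, 59.4 and 70.0 in GC-BuOE and at 102.0, 102.3 and 94.7 in FLT-BuOE, above without overlap (log2 difference 0.50 ± 0.17, 95% interval 0.17 to 0.83, limma adjusted p = 0.55). AI593442 was at 33.2, 38.0 and 40.8 against 52.9, 58.9 and 46.2, again above without overlap (0.48 ± 0.18, 95% interval 0.12 to 0.85, limma adjusted p = 0.61). Both intervals lay above 0 and so did not hold the saline values of −0.59 and −0.63, though neither difference passed the adjusted test. Those saline values belong to the comparison that chose the genes and have an error of their own. Lamp5 in CA was above without overlap as well, at 35.8, 30.7 and 24.9 against 37.3, 44.5 and 41.8 (0.43 ± 0.23, limma adjusted p = 0.69). In FCT and DG both genes overlapped between FLT-BuOE and GC-BuOE.

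Nptx1 and Hs3st4 showed little of their cortical opposition in BuOE mice. In CT, Nptx1 was at 133, 175 and 135 in GC-BuOE and 136, 185 and 185 in FLT-BuOE, a log2 difference of 0.18 with a 95% interval of −0.16 to 0.53. In FCT it was at 167, 239 and 231 against 146, 179 and 358, a difference of 0.01 with an interval of −0.39 to 0.40 that changed sign without the FLT-BuOE mouse at 358 (−0.37) or the GC-BuOE mouse at 167 (−0.16). Neither interval reached the saline value of that region, which belongs to the comparison that chose the genes. Hs3st4 in CT was at 50.3, 53.4 and 39.3 against 32.3, 28.9 and 47.0, a difference of −0.41 with an interval of −0.80 to −0.03 (limma adjusted p = 0.72), where the saline difference had been positive. In FCT, Hs3st4 ranged from 70.3 to 101 in GC-BuOE and from 50.0 to 118 in FLT-BuOE (−0.17, 95% interval −0.56 to 0.23). Nptx1 in CA (0.28, −0.02 to 0.59) and DG and Hs3st4 in CA and DG overlapped between the groups.

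Of the 20 combinations, 6 did not overlap in BuOE mice, 3 with flight above (Lamp5 in CA and CT, AI593442 in CT) and 3 below (Scg2 in CA, FCT and CT). The share over all genes and regions was 10.9% (CA 11.3%, DG 10.5%, FCT 11% and CT 11%). The sign was the same in saline and BuOE mice in 13 of 20 combinations, against 52.4% of the combinations over all genes. In 7 of 20 combinations the 95% interval of the BuOE difference held the saline difference. The saline differences chose the genes and have an error of their own, and the share over all genes was not computed. This count therefore cannot decide whether the flight difference depended on treatment.

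**Figure D3:**
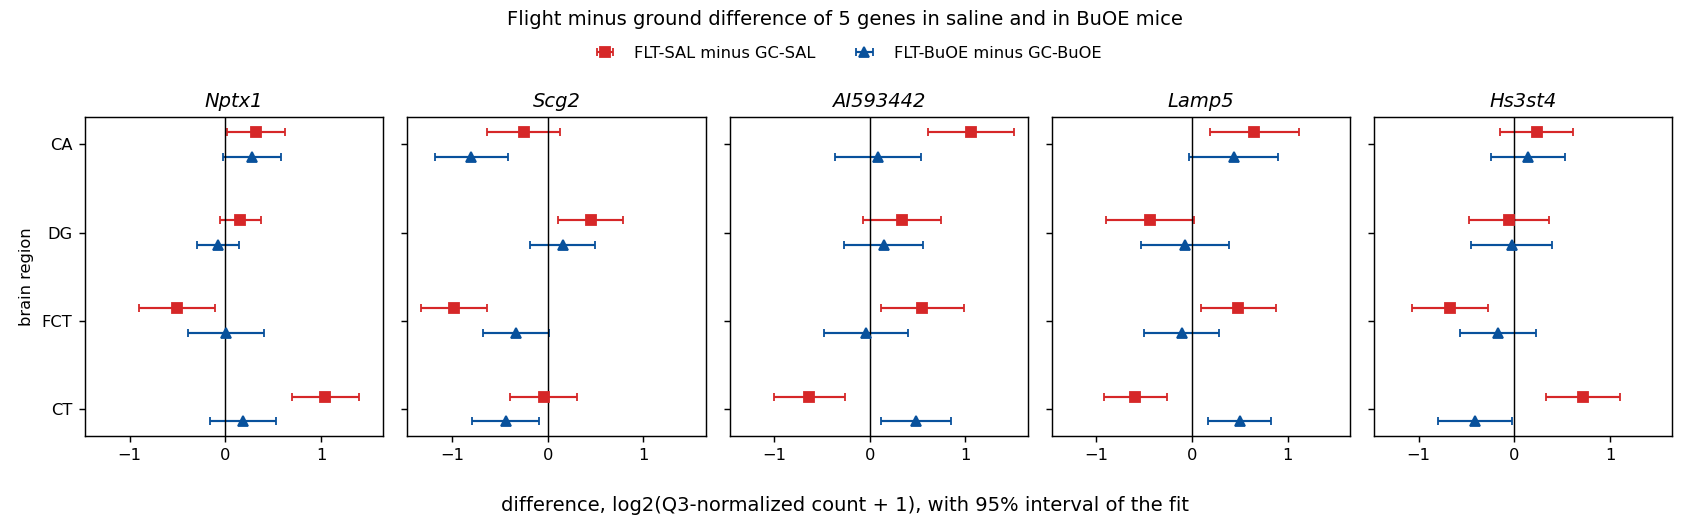
Flight minus ground log2 difference of the 5 genes (x axis, log2 of the normalized count plus 1) by region (y axis) for saline and BuOE mice, as points with bars for the 95% interval of the fit, 3 against 3 mice. In CT, Lamp5 is at −0.59 in saline and 0.50 in BuOE mice and AI593442 at −0.63 and 0.48, while Scg2 in CA, FCT and CT is below 0 in both.

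The difference between regions was tested itself in BuOE mice, in a joint model of all 48 AOIs. No member passed the test that the flight difference was equal in the 4 regions (limma, adjusted p = 0.37 for Scg2, 0.71 for Lamp5, 0.86 for Hs3st4, 0.88 for AI593442 and 0.92 for Nptx1), and 0.00634% of all genes did, which is 1 gene, Junb, while 1162 had an unadjusted p below 0.05. The unadjusted p was 0.0032 for Scg2 and 0.0588 for Lamp5. For Scg2, the flight difference in CA minus that in DG was −0.96 (95% interval −1.46 to −0.46, limma adjusted p = 0.17 over all genes). None of the 30 combinations of a gene and a pair of regions passed, where 0% to 0.0253% of all genes did.

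The groups that share mice with the saline comparison are described without a test. Under BuOE in flight (FLT-BuOE minus FLT-SAL), the CT values of 4 members moved against their saline flight difference: Lamp5 was 1.19 higher on the log2 scale, AI593442 0.70 higher, Nptx1 lower by −0.60 and Hs3st4 by −0.82, each without overlap. Scg2 in FCT was 0.62 higher, also without overlap. Lower without overlap were AI593442 (−0.55) and Hs3st4 (−0.35) in CA and Nptx1 in DG (−0.25), and also Scg2 in CA (−0.43), where the saline flight difference of −0.25 had the same sign. FLT-SAL is the reference of this difference and the tested group of the saline one, so opposite signs are built into the pair. On the ground (GC-BuOE minus GC-SAL), Lamp5 in FCT was 0.81 higher without overlap, with 67.1, 48.9 and 60.9 in GC-BuOE against 27.4, 36.9 and 35.3 in GC-SAL. Nptx1 in FCT was lower by −0.47 and AI593442 in CT by −0.42, both without overlap, so the controls of these genes differed between the slides too.

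The levels of the members between regions, in the 6 BuOE-treated mice, set out where each gene was most abundant. Nptx1 was at 434 ± 34.7 (SD, n = 6) in DG, 219 ± 44.1 in CA, 219.8 ± 76.8 in FCT and 158 ± 26.0 in CT. DG was the highest region in 6 of 6 mice, and its level passed the test against CA, FCT and CT (log2 differences 1.04 against FCT and 1.46 against CT, and −1.0 for CA minus DG; limma adjusted p = 1.1e-10, 1.8e-11 and 1.3e-18 for CA, FCT and CT). CA and FCT did not differ beyond their spread. CA stood 0.46 above CT (limma adjusted p = 0.0042), under the fold threshold.

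Lamp5 had the steepest order in these mice, with CT at 85.3 ± 17.7, FCT at 57.4 ± 12.2, CA at 35.8 ± 7.19 and DG at 24.3 ± 3.96 (SD, n = 6). CT was highest and DG lowest in 6 of 6 mice. CA and DG were each below both cortical regions, by log2 differences of −0.66 (CA minus FCT), −1.23 (CA minus CT), −1.20 (DG minus FCT) and −1.76 (DG minus CT). The first of these was −0.58 without GC-BuOE mouse 3, −0.52 without FLT-BuOE mouse 1 and −0.32 with the saline mice included, and was then under the fold threshold. FCT and CT, neighbours in the order, were not distinguished (−0.56, limma adjusted p = 0.091).

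Hs3st4 was highest in FCT in 5 of 6 mice, at 79.1 ± 25.3 against 52.9 ± 15 in DG, 49.2 ± 6.63 in CA and 41.8 ± 9.96 in CT (SD, n = 6). FCT minus CT was 0.88 (limma adjusted p = 0.00075) and CA minus FCT −0.63 (limma adjusted p = 0.0011). Both rested in part on single mice: the first had a limma adjusted p of 0.065 without GC-BuOE mouse 3, and the second was −0.50 without that mouse and −0.43 without FLT-BuOE mouse 3, under the fold threshold. DG minus FCT, at −0.56, was just under the threshold and passed it in 4 of the 6 fits that left out 1 mouse, while it was −0.34 without GC-BuOE mouse 3 and −0.27 without FLT-BuOE mouse 3 (limma adjusted p = 0.21 and 0.31). FLT-BuOE mouse 1 had the opposite order, at 68.4 in DG and 50.0 in FCT. DG, CA and CT did not differ beyond their spread. Scg2 ran from 57.6 ± 18.4 in CA over 68.3 ± 11.2 in DG and 72.1 ± 13.5 in CT to 83.7 ± 14 in FCT, and AI593442 from 35.1 ± 2.49 in CA and 36.0 ± 9.55 in FCT to 45.0 ± 9.64 in CT and 46.0 ± 8.21 in DG. No pair of regions passed both thresholds for these genes, the nearest being CA minus FCT of Scg2 at −0.58 (limma adjusted p = 0.00035), which passed without GC-BuOE mouse 2 or FLT-BuOE mouse 3.

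In all, 9 of the 30 pairs of regions and genes passed. The share of all genes that passed was 5.63% for CA against DG, 5.09% for CA against FCT, 5.25% for CA against CT, 5.66% for DG against FCT, 6.56% for DG against CT and 0.0507% for FCT against CT. Hs3st4 was 1 of only 8 genes called between the cortical regions.

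**Figure D4:**
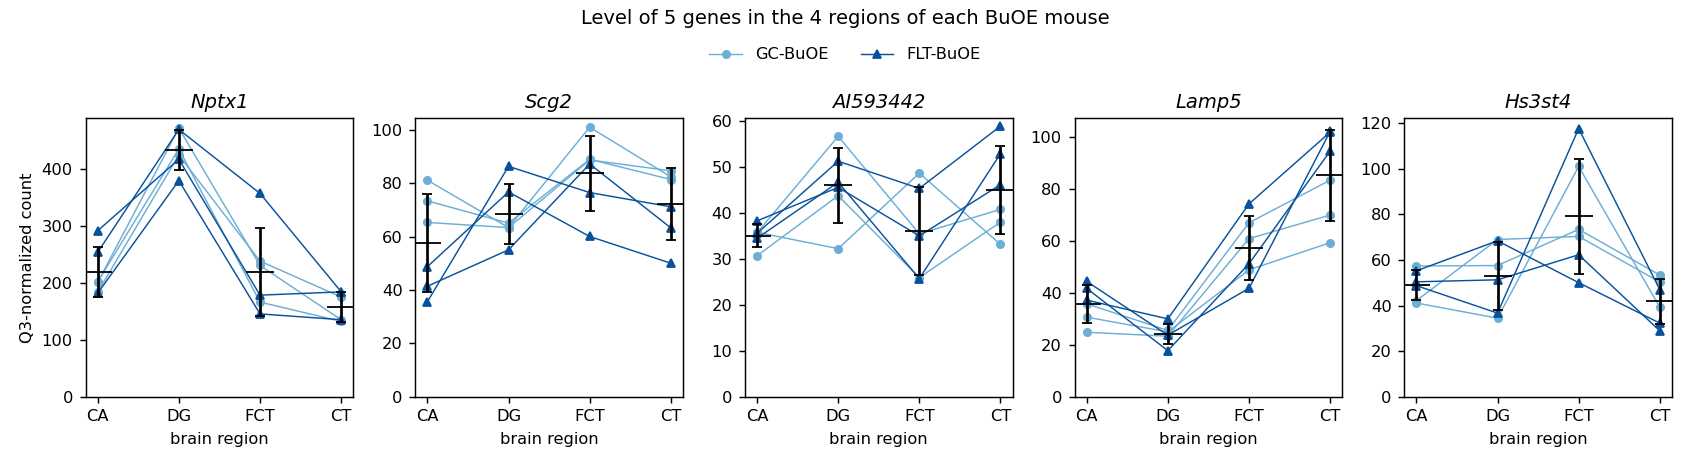
Q3-normalized counts of the 5 genes (y axis, linear from 0) by region (x axis) in the 6 BuOE-treated mice, a line per mouse, with the mean and SD in black. Nptx1 is highest in DG (mean 434), Lamp5 in CT (85.3) and Hs3st4 in FCT (79.1), while the Scg2 means lie between 57.6 and 83.7 and those of AI593442 between 35.1 and 46.0.

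Marker genes of cell types and layers moved between the same slides, and their part in the results of the 5 genes was not tested. In CT, the 8 measured oligodendrocyte markers summed to 786 to 822 in GC-SAL and 1295 to 1814 in FLT-SAL, above without overlap. In BuOE mice the order was the other one, with 851 to 1036 in GC-BuOE and 661 to 818 in FLT-BuOE. Mobp (1.33, limma adjusted p = 2.8e-07) and Cnp (0.87, limma adjusted p = 0.0027), both myelin genes, were called higher in the CT of FLT-SAL, where Nptx1 and Hs3st4 were higher and Lamp5 and AI593442 lower. No other marker list had a called gene in CT. In the FCT of saline mice, 6 of the 8 oligodendrocyte markers were above 0 and 2 below (median log2 difference 0.41, all genes 0.03). Their sums overlapped there, at 1026 to 1221 in GC-SAL and 1202 to 1914 in FLT-SAL. Nptx1 and Hs3st4 were lower in that region and Lamp5 and AI593442 higher, the reverse of CT. Over all genes, the share called between FLT-SAL and GC-SAL was 0.139% (CA), 0.266% (DG), 0.0507% (FCT) and 0.0887% (CT).

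**Figure D5:**
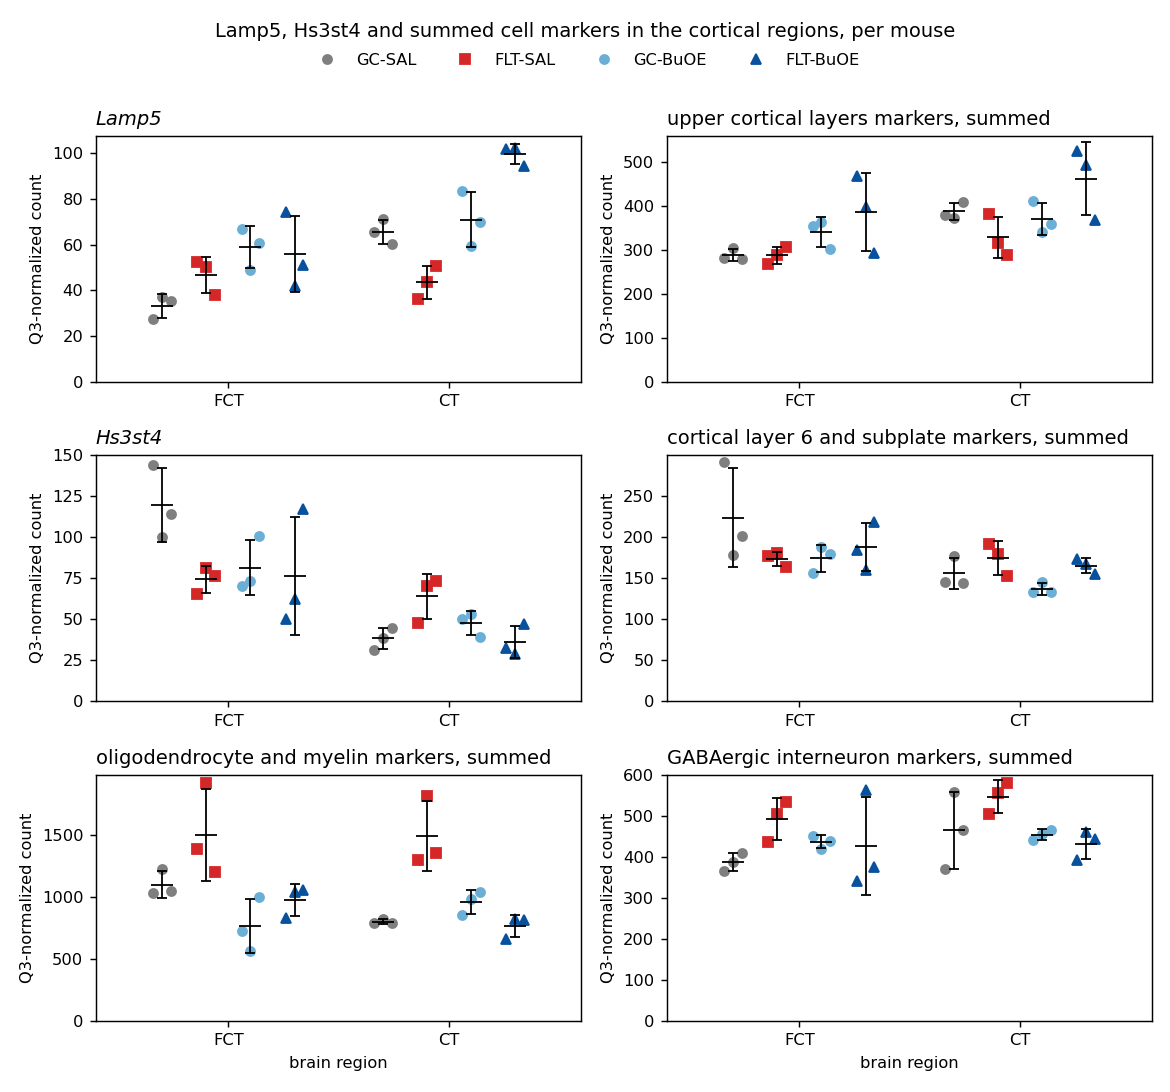
Q3-normalized counts of Lamp5 and Hs3st4 and the summed counts of markers for upper layers, layer 6 and subplate, oligodendrocytes and GABAergic interneurons in FCT and CT (y axes linear from 0), with a point per mouse and the mean and SD of the 3 mice of a group. The oligodendrocyte sum in CT is 1295 to 1814 in FLT-SAL and 661 to 1036 in the other groups.

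Markers of layer 6 and subplate differed in sign between the cortical regions of saline mice, and no layer marker was called. The 8 markers of upper cortical layers were all below 0 in CT in saline mice (median log2 difference −0.25) and all above 0 in BuOE mice (0.25), the signs Lamp5 and AI593442 had there, against medians of all genes of 0.01 and 0.00. Their CT sums overlapped, at 374 to 410 in GC-SAL, 290 to 381 in FLT-SAL, 342 to 412 in GC-BuOE and 368 to 527 in FLT-BuOE. In FCT, 5 of the 8 were above 0 in saline mice (median 0.03, all genes 0.03), where Lamp5 was at 0.48 and AI593442 at 0.55. In the FCT of BuOE mice 5 of 8 were also above 0 (0.09), where Lamp5 was at −0.11 and AI593442 at −0.04. The 6 measured markers of layer 6 and subplate, out of 8 listed, were all below 0 in the FCT of saline mice (median −0.23) and 5 of 6 were above 0 in CT (0.14), the signs of Nptx1 and Hs3st4. Their FCT sums were 178 to 292 in GC-SAL and 164 to 180 in FLT-SAL. In BuOE mice the layer 6 and subplate list did not have the signs of Hs3st4. In CT, 5 of 6 were above 0 (median 0.16), with sums of 133 to 145 in GC-BuOE and 155 to 173 in FLT-BuOE. Hs3st4 was at −0.41 there and Nptx1 at 0.18. In FCT, 4 of 6 were above 0 (0.15), where Hs3st4 was at −0.17 and Nptx1 at 0.01, a sign that rested on single mice. Layer 5 markers in FCT summed to 235 to 265 in GC-SAL and 269 to 297 in FLT-SAL, and in the other order to 257 to 268 in GC-BuOE and 215 to 253 in FLT-BuOE.

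In the hippocampal regions, CA1 markers in CA summed to 426 to 486 in GC-SAL and 585 to 633 in FLT-SAL, with Wfs1 called (0.82, limma adjusted p = 0.024), in the region where AI593442 and Hs3st4 were higher. Dentate granule markers in DG summed to 495 to 582 and 588 to 673, with C1ql2 called (0.60, limma adjusted p = 0.038), where Nptx1 was higher and Lamp5 lower. GABAergic markers, 10 of 12 measured, summed higher in FLT-SAL without overlap in CA (295 to 335 against 344 to 403), DG (306 to 329 against 351 to 408) and FCT (365 to 408 against 437 to 535), and overlapped in CT (370 to 558 against 504 to 581). Lamp5, which marks part of these cells, was higher with them in FCT and lower in DG. In CA its mean difference of 0.65 had their sign too, though its values overlapped and were close to the background. In CT, where their sums overlapped, Lamp5 was lower. The lists for CA3 pyramidal neurons, astrocytes, microglia and vessel wall had no called gene in any region in either comparison, although some of their sums did not overlap. Microglial markers in CT summed to 175 to 185 in GC-BuOE and 136 to 169 in FLT-BuOE, with all 6 below 0, where Lamp5 and AI593442 were above, and in CA to 179 to 195 and 148 to 178, where Scg2 was below. In the DG of saline mice, astrocyte markers summed higher in FLT-SAL (327 to 376 against 404 to 440.3), and microglial (165 to 183 against 156 to 162) and CA3 markers (190.5 to 213 against 169.7 to 187) lower. Vessel wall markers in the CA of saline mice summed to 173 to 203 in GC-SAL and 167 to 169 in FLT-SAL, and CA1 markers in their CT to 280.2 to 311 and 259.7 to 279. In the DG of BuOE mice, oligodendrocyte markers summed to 462 to 520.3 in GC-BuOE and 552 to 774 in FLT-BuOE, and GABAergic markers to 345 to 419 and 319 to 344.

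Genes that work with the members were listed by role, and almost none passed. Of 10 measured genes of pentraxins and AMPA receptors, Gria3, an AMPA receptor subunit, was called higher in the DG of FLT-SAL (94.1 against 56.0, log2 difference 0.74 ± 0.16, limma adjusted p = 0.012), the region where Nptx1 was higher by 0.16. The list had a median of 0.11 in DG against −0.01 over all genes, and no gene was called in BuOE mice. The widest BuOE values were those of Nptx2, an activity-linked pentraxin, at −0.60 and of Gria2 at 0.40, both in DG. In all, 8 of the 10 genes had both signs among the regions in saline mice.

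None of the 12 granin and dense-core vesicle genes passed in either comparison. Unlike Scg2, 10 of the 12 were above 0 in the FCT of saline mice (median 0.07, all genes 0.03), and 11 of 12 were above 0 in DG, where Scg2 was too (median 0.21, all genes −0.01). Pcsk2, a convertase that cuts granins, had CA means of 63.0 with FLT-BuOE and 35.0 with GC-BuOE (0.95 ± 0.23, limma adjusted p = 0.10), where Scg2 was at −0.80, and Vgf in DG was at −0.43. None of the 5 LAMP and lysosomal membrane genes passed, the widest BuOE values being Cd68 in CA at −0.51 and Cd63 in DG at −0.44. None of the 10 measured heparan sulfate genes passed, with Ndst4 in FCT at −0.68 and Hs3st1 in CT at 0.60. Both signs among the regions in saline mice were found for 7 of 12, 4 of 5 and 7 of 10 genes of these lists, next to 80.9% of all genes.

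Genes with the most similar pattern were found by Pearson correlation of log2 values over the 48 AOIs among 13829 genes above background, as a description, since AOIs share mice and slides. Nptx1 was closest to Rogdi (r = 0.88), Slit1 (0.87) and Prkce (0.86), and with the region means subtracted to Slc4a10 (0.72), Ncald (0.72) and Cplx2 (0.71). Rogdi was above without overlap in the CT of FLT-SAL, as Nptx1 was, with means of 102 against 68.0. In FCT, where Nptx1 was lower, Rogdi overlapped at 89.9 against 82.1.

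For Scg2 the closest gene was Ptprn, a membrane protein of dense-core vesicles, at 0.62 over all AOIs, followed by Gpr162 and Actn4 (0.57 each). Ptprn led again with region means subtracted (0.68), before Homer1 (0.63) and Srebf2 (0.61). In saline mice, Ptprn had the signs of Scg2 in FCT (283 in GC-SAL and 197 in FLT-SAL, overlapping) and DG (164 and 189.6, without overlap). It was also lower without overlap in CA (log2 difference −0.43) and CT (−0.40), where Scg2 was at −0.25 and −0.04. In BuOE mice it was lower in FLT-BuOE in FCT (340.1 against 263) and CT (319.7 against 249) without overlap. In their DG it was at −0.05, where Scg2 was at 0.16. Its limma adjusted p was 0.36 or above in each of these.

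Hs3st4 was closest to Syt6, a layer 6 marker of the list above, in both ways (0.74 and 0.63), then to Tmem178 and Podn (0.60 each) over all AOIs and to Nos1ap (0.57) and Mark2 (0.56) with region means subtracted. Syt6 in FCT was at 52.4 in GC-SAL and 28.9 in FLT-SAL, without overlap (log2 difference −0.80, limma adjusted p = 0.36). Lamp5 had Ptn (0.81) and Osbpl1a (0.80) among its closest genes, and was closest with region means subtracted to Zfx (0.60), Car4 (0.56) and Oas3 (0.55). AI593442, near background in part of the AOIs, had no neighbour above 0.56 (Dhx15 0.56, Gdap2 0.54 and Rab18 0.54) over all AOIs and 0.59 (Rab35 0.59, Zyg11b 0.58 and Gdap2 0.56) with region means subtracted.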

How the data were processed

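RNA of 48 AOIs was read with oligonucleotide-tagged probes of a whole-transcriptome panel on FFPE sections, in regions chosen with GFAP, Iba1 and nuclear staining. The authors processed reads with the GeoMx NGS Pipeline (version 2.3.4 per the labels) into deduplicated probe counts (20175 probes), and deposited both these counts and Q3-normalized counts, a signal scaled to a common upper quartile, for 15782 genes in 4 regional tables. The deposited comparison tables hold the authors' log2 fold changes and p-values and were not used. No gene was removed and no background was subtracted in the main values. The normalized values returned whole counts within 0.02 for 99.98% of values.

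Each region was fitted with limma 3.58.1 (R 4.3.3) on log2(value + 1), 12 AOIs and 4 groups sharing 1 estimate of the spread, with a mean-variance trend. Regions were compared in 1 fit of the 48 AOIs with the mouse as a random block (duplicateCorrelation, statmod 1.5.0, correlation 0.0255). P-values were adjusted by Benjamini-Hochberg over all 15782 genes, and a call needed an adjusted p below 0.05 and a difference of more than 1.5-fold (no fold threshold for the difference between regions). Standard errors and intervals are those of the fit. With 3 against 3 mice an exact permutation test cannot go below 0.1 and was not used. Alternatives were a pseudocount of 5, a filter keeping genes over 1.5 times the negative control in at least 3 AOIs, the negative-control value subtracted (chosen for the BuOE comparison after seeing the data), the mean over all 4 groups for levels, edgeR 4.0.16 (TMM) and DESeq2 1.42.0 on the whole counts recovered for 15779 genes, a fit of the BuOE groups alone, a replicate block, and each mouse left out. The fits were tested on simulated data.

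Replicate numbers mark the same mouse across regions, as AOIs of a number lay at most 4333 coordinate units apart on a slide and those of different numbers at least 10873. Between groups they name different mice: within a region, the correlations of same-numbered mice ran from −0.18 to 0.06, and none of them exceeded 0.1. The number of mice that correlated best with their own number was 2 to 3 in CA and DG. In FCT and CT it was 0 in saline mice and 3 in BuOE mice. The main fits of a region did not use these numbers, and the replicate block among the alternatives did.

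The 5 genes, the pathway and marker lists and the tests were chosen with earlier results of these data known. Genes named beyond the members are the called genes of each list or else the 2 with the widest BuOE difference, and the 3 genes closest to each member. Some genes this rule names are not reported here. Pik3r4 and Junb were named after their values were seen. Windows before the start were taken from RefSeq, for 4 members.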

Additional observations from a re-analysis of the deposited data

Results flagged for a closer look

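In saline mice, 4 of the 5 genes had every flight mouse above every control in 1 region and every flight mouse below every control in another. These are differences the genes were chosen for, and no difference between the regions was tested in saline mice. The gap between the log2 differences of such a pair of regions was 1.56 (CT above, FCT below) and 0.67 (DG above, FCT below) for Nptx1, 1.69 (CA above, CT below) and 1.18 (FCT above, CT below) for AI593442, 1.07 (FCT above, CT below) and 0.92 (FCT above, DG below) for Lamp5, and 1.38 (CT above, FCT below) and 0.90 (CA above, FCT below) for Hs3st4. Scg2 had no such pair, because its DG values overlapped.

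In CT, the flight difference had opposite signs in BuOE and saline mice, each without overlap, for AI593442 (0.48 and −0.63, a gap of 1.12) and Lamp5 (0.50 and −0.59, a gap of 1.09). These gaps were not tested, as the saline values chose the genes. The myelin marker sum in CT was also ordered oppositely in the saline and BuOE mice, and its part in these values was not tested.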

How the results depend on the processing

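Among the members' values of the BuOE flight difference under the alternatives, 245 kept their direction and side of the threshold, 14 reversed and 1 passed. The value that passed was Scg2 in CA with a replicate block (−0.80, limma adjusted p = 0.048). The replicate block changed no other call of a member. AI593442 in FCT (−0.04) reversed to 0.085 with edgeR, 0.051 with DESeq2 and 0.017 with the negative control subtracted, an alternative of this comparison chosen after seeing the data. Leaving out 1 mouse moved Nptx1 in FCT over −0.37 to 0.27, AI593442 over −0.059 to 0.34 in DG and −0.26 to 0.18 in FCT, Lamp5 over −0.25 to 0.11 in DG and −0.33 to 0.077 in FCT, and Hs3st4 over −0.31 to 0.20 in DG and −0.52 to 0.088 in FCT. The 50 values of the test between regions kept their side. All 5 genes had both signs among the regions in saline mice under every alternative run. Of the saline differences 208 moved by less than the spread and 12 by more, mostly with the negative control subtracted.

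Of all genes, the calls for FLT-BuOE against GC-BuOE in CA (7) became 11 with a pseudocount of 5, 12 with the filter, 15 with the replicate block, 12 with the negative control subtracted, 20 with edgeR, 1 with DESeq2 and 1 to 12 with a mouse left out (1 without GC-BuOE 1, FLT-BuOE 1 or FLT-BuOE 3). In DG (17) they became 28 with the replicate block, 4 with the negative control subtracted, 11 with DESeq2 and 6 to 19 with a mouse left out (6 without GC-BuOE 3). In FCT (3) they became 1 with DESeq2 and 2 to 6 with a mouse left out (6 without FLT-BuOE 2), and in CT (2) 5 with edgeR and 1 to 2 with a mouse left out (1 without FLT-BuOE 3). The calls of the test between regions (1) became 11 with edgeR and 1 to 5 with a mouse left out (5 without GC-BuOE 3). Calls of levels became 517 (from 803) for CA against FCT and 16 (from 8) for FCT against CT with all 4 groups averaged, and for the latter 23 with edgeR and 0 to 13 with a mouse left out (0 without GC-BuOE 3). The fit of the BuOE groups alone gave 10, 14, 2 and 3 calls in CA, DG, FCT and CT. The causes were not tested. The filter removed no gene in the joint fit, and DESeq2 was not run for it.

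Precision is limited by 3 mice per group, 1 slide per group and, for AI593442 and Lamp5, by low probe counts near the negative control, most of all in CA and also in FCT, CT and DG. Low probe counts also limit Scg2 in the CA and Hs3st4 in the CT of FLT-BuOE mice. AOI area and the median total probe count differed between groups.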
